A study of Mus musculus with 6 samples.

Results

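Regions of open chromatin that were called in immature B cells of mouse bone marrow, and in neither plasma cells nor pc-BMACs, were described here across the genome. They were selected on the authors' peak calls: overlapping peaks of all 6 libraries were merged into 69171 regions, and those with a peak in both immature B cell libraries and none in the other 4 were kept. There were 9904 such regions, 14.3% of all merged regions. The calls that chose them are not a finding, and no test was made on them. The assay was ATAC-seq, which tags accessible DNA with adapters carried by a transposase, on 2000 to 15000 sorted cells per library. All cells came from unimmunised Adig mice of the Balb/c strain, which carry a green fluorescent reporter of Aire, the autoimmune regulator. The gate for immature B cells was AireGFP-B220+CD138-TACI-IgM+ and that for plasma cells AireGFP-B220-CD138+TACI+. The pc-BMACs were the reporter-positive cells of the plasma cell gate, AireGFP+B220-CD138+TACI+. Each population had 2 libraries. Whether these came from separate animals, or from pooled ones, is not given in the sources used here. Each population is known only by its gate, so other cells that pass the same gate would be included.

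Immature B cells are the first stage of the B lineage to carry a complete antigen receptor, IgM, on the surface. They arise from precursors that have rearranged the heavy chain and then a light chain gene, and those whose receptor binds self antigen can rearrange the light chain again. The transcription factors Pax5, Ebf1, Ikzf1 and Foxo1 sustain the B cell programme, while plasma cells, which secrete antibody, shut much of it down under Prdm1 and build their secretory machinery under Xbp1. Regions of open chromatin away from gene starts often hold enhancers, whose use differs between cell types more than that of promoters.

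At 248 of 32851 promoter windows (0.755%), from 231 genes, a region called in immature B cells alone overlapped the window. A window is 250 bases before to 50 bases after an annotated start, from RefSeq on GRCm38.p6. Those of Ikzf1, Rasgrp3 and Itgam are the windows of genes on the lists used below, and those of Fgr and Ms4a6b were chosen after their values were seen. They are shown because the regions over them were called in these cells alone, which was uncommon at promoters. Capitals mark each match of the motif GAGGAAG on either strand (CTTCCTC on the other), a sequence of the type bound by PU.1 and other ETS factors. All lie on the plus strand and read 5′ to 3′. The window of Itgam, an integrin subunit of myeloid cells and some lymphocytes, is chr7:128062390-128062689, that of Rasgrp3, a Ras activator downstream of the B cell receptor, chr17:75435655-75435954, and that of Fgr, a Src family kinase, chr4:132973845-132974144. The window of Ikzf1, the zinc finger factor Ikaros, is chr11:11689927-11690226, and that of Ms4a6b, a membrane protein of the family of CD20, chr19:11518309-11518608.
Itgam: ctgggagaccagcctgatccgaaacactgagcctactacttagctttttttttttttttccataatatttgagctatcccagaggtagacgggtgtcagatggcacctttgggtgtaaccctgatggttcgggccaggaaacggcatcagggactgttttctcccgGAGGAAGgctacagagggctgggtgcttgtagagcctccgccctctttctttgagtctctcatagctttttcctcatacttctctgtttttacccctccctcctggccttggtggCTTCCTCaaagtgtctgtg
Rasgrp3: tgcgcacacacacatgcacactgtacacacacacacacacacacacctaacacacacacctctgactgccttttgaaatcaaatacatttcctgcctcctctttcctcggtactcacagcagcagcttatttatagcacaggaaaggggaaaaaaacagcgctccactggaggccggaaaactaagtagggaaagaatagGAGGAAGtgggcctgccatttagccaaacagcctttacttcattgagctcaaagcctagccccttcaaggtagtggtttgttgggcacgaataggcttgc
Fgr: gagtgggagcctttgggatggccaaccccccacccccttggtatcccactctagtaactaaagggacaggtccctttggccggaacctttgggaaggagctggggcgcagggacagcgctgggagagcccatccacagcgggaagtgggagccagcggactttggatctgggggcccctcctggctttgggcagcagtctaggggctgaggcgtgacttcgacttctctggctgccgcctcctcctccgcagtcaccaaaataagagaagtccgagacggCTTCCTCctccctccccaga
Ikzf1: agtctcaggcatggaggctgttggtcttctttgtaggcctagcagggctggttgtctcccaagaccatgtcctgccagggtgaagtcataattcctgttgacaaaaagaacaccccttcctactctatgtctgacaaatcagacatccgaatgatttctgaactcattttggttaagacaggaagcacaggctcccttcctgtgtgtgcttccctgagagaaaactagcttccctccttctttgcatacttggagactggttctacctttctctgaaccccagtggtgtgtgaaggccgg
Ms4a6b: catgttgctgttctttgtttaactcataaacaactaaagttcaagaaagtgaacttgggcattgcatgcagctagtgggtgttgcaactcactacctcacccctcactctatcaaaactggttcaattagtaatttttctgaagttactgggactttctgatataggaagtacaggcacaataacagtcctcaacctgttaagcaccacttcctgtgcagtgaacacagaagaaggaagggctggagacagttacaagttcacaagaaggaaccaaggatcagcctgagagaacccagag

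The Itgam window held 2 matches, beginning 84 bases before and 31 bases after the start base. Rasgrp3 held 1, from 50 bases before, and Fgr 1, from 30 bases after. The windows of Ikzf1 and Ms4a6b held none, which says only that these 7 letters are not in those 300 bases. The region over the Ikzf1 window covered 2259 bp in immature B cells 1 and 1084 bp in immature B cells 2. At Rasgrp3 the peaks covered 733 and 251 bp, at Fgr 1190 and 377 bp, and at Ms4a6b 1258 and 878 bp, each wider in the first library. The Itgam region was narrow in both, at 273 and 289 bp.

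Across all 248 windows, 59 (23.8%) held GAGGAAG. A match counted anywhere in the window, also outside the called region. At Gm19835, 4 bases of the window lay in the region, and the match began 226 bases before the start. Overlapping windows, such as those of Ccdc149, counted separately, so a site could count more than once. The share is therefore one of windows, not of motifs inside the called regions. The share was 13.6% of all 32851 windows, 13.1% of the windows overlapped by a region called in all 6 libraries, 14.4% of those at regions called in pc-BMACs alone (16 of 111) and 15.6% at regions called in plasma cells alone (7 of 45). When each list was cut to its 34070 widest peaks, the number in the shortest list, the share was 25.5%, and with the 17035 widest 15.7%, close to that of all windows. This motif was singled out after the shares of 16 motifs had been seen. Of the others, CCGGAAG, also of ETS type, was in 3.23% of these windows against 2321 of 11620 windows at regions of all 6 libraries, and in 8.86% of all windows. The GC box GGGCGG was in 33.5% against 67.9%, and in 35.7% of all windows. TATAAA was in 13.7% against 5.8%, and in 13.6% of all windows. The octamer ATTTGCAT, known from immunoglobulin promoters, was in 2.02%, near the 1.74% of all windows, and CCCNNGGG, of EBF1 type, in 18.5%, against 18.7% at regions of all 6 libraries and 13.7% of all windows. The motifs were read on both strands; GAGGAAG can overlap GGAANNGAA. The windows at regions called in immature B cells alone had a median of 7.5 CpG and 54.0% G and C, near the 7 CpG and 52.7% of all windows. The windows at regions of all 6 libraries stood apart, with 22 CpG and 62.0%. A match is a description of the sequence, not a bound site.

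The lists differed in their number of peaks, and cutting them to their widest peaks changed the counts. The lists had 51643 and 46534 peaks in immature B cells, 37821 and 36723 in plasma cells and 38607 and 34070 in pc-BMACs, and they carry no read depth. With all peaks, 3054 regions (4.42%) were called in pc-BMACs alone and 1041 (1.5%) in plasma cells alone. With each list cut to its 34070 widest peaks, 3880 regions (7.19%) were called in immature B cells alone, 3533 in pc-BMACs alone and 1118 in plasma cells alone. With the 17035 widest the counts were 1508, 1218 and 442. The excess over pc-BMACs therefore shrank from 9904 against 3054 to 3880 against 3533 with the 34070 widest peaks. This cut equalises list length and also drops narrow peaks, so the 2 cannot be told apart. The regions called in immature B cells alone had a median width of 321 bp, against 1152 bp for those called in all 6 libraries. Without immature B cells replicate 2, so that a call in the first library alone sufficed, the count was 16917.

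Just outside the rule, 6997 regions were called in immature B cells 1 alone, with a median width of 202 bp, and 2162 in immature B cells 2 alone, with a median of 150 bp. A further 3742 regions had both immature B cell libraries and exactly 1 other: plasma cells 2 at 1640, plasma cells 1 at 939, pc-BMACs 1 at 923 and pc-BMACs 2 at 240. The regions inside the rule had a median width of 321 bp (quartiles 251 and 431 bp), against 1152 bp for the 20468 regions called in all 6 libraries. Within them the peak covered a median of 308 bp in immature B cells 1 and 235 bp in immature B cells 2, and was wider in the first library at 77.2%. The same order held at regions of all 6 libraries, with 1034 and 767 bp, where the first library was wider at 92.5%. Only 82 regions (0.828%) lay within 200 bp of a peak of plasma cells or pc-BMACs and 907 (9.16%) within 1 kb. For 4430 (44.7%) the nearest such peak was over 10 kb away.

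The second immature B cell library gave a look at the calls that the first alone would have chosen. Of 16901 regions called in immature B cells 1 and in no other population, 58.6% were also called in immature B cells 2, and of 12066 chosen in immature B cells 2, 82.1% were called in immature B cells 1. Over all regions of each library the shares were 81.6% of 51243 and 93.2% of 44818. In both directions the share among regions restricted to immature B cells was lower than that. The share rose with the width of the peak, from 31.4% in the narrowest of 4 equal classes to 81.6% in the widest for the first library, and from 65.5% to 93.1% for the second. In immature B cells 2 the narrowest class held only peaks of 150 bp, the least width in the lists. The second class also began at 150 bp, and peaks of equal width were split between classes by position in the genome.

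**Figure D1:**
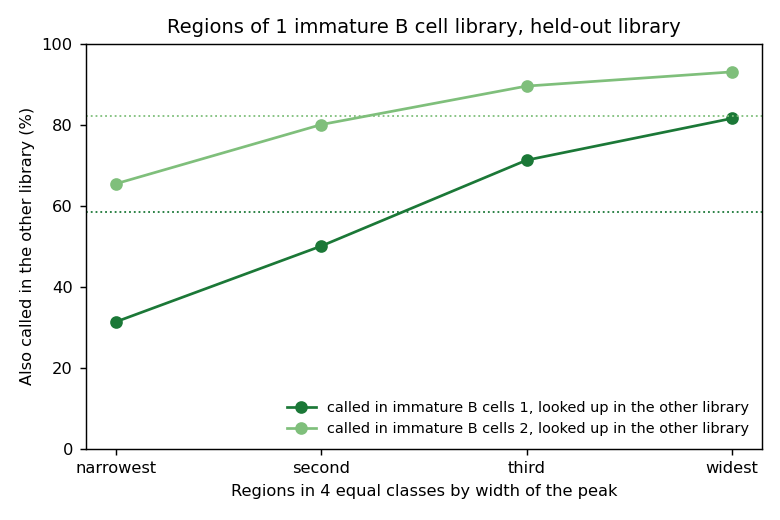
For regions that a single immature B cell library had and no plasma cell or pc-BMAC library had, the share that the other immature B cell library also called (y axis, %), in 4 equal classes by peak width (x axis). Dotted lines give the share over all classes, 58.6% and 82.1%, and both series climb with width. For immature B cells 2, peaks of 150 bp fall in both the narrowest and the second class.

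Most of these regions lay away from gene starts and, more often than the other classes, outside protein-coding genes. Of the 9904, 52.0% overlapped a protein-coding gene, against 73.2% of regions called in pc-BMACs alone, 63.8% of those called in plasma cells alone and 76.9% of those called in all 6 libraries. At equal list length the shares were 53.6%, 72.1% and 61.7% for immature B cells, pc-BMACs and plasma cells, and with the 17035 widest 57.4%, 70.7% and 58.8%, so that the gap to plasma cells narrowed. Only 5.69% lay within 1 kb of either end of a gene and 2.25% overlapped a promoter window, against 47.0% and 41.7% of regions called in all 6 libraries. Regions called in pc-BMACs alone (7.04% and 3.27%) and in plasma cells alone (6.82% and 4.03%) were nearly as far from gene ends. The median distance to the nearest start was 21390 bp, over the 9561 regions on chromosomes with promoter windows, and 12.2% lay over 100 kb away, against 7.85% for pc-BMACs alone and 8.91% for plasma cells alone. Regions overlapping an annotated lncRNA made up 11.2%, near the 12.4% of all regions. The share of a chromosome's regions ran from 11.9% on chromosome 8 to 16.5% on chromosome 18 among the autosomes, was 15.9% on X, and was 1 of 20 on Y.

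**Figure D2:**
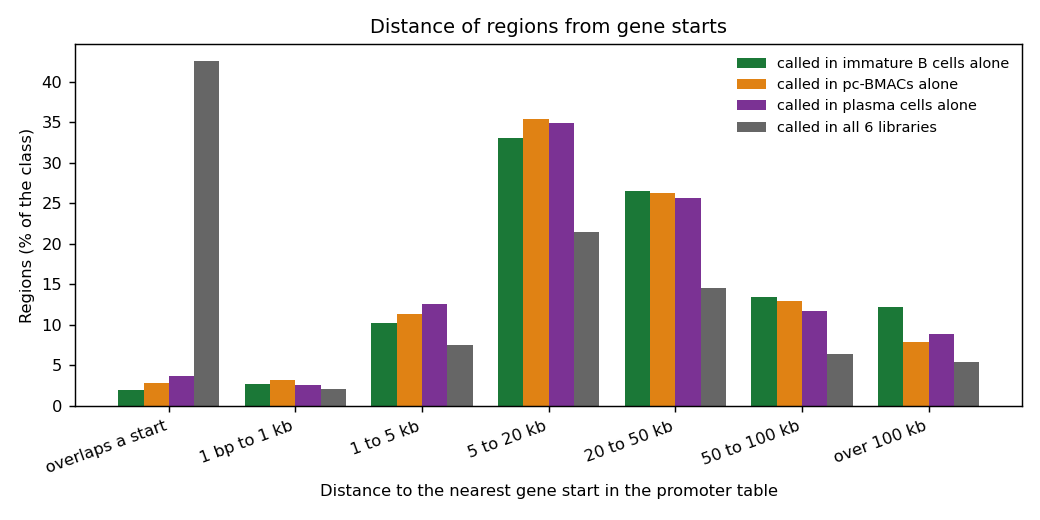
Percent of each class of regions (y axis) by distance to the nearest annotated gene start (x axis), for regions called in immature B cells alone, in pc-BMACs alone, in plasma cells alone and in all 6 libraries. The last class peaks at starts, at 42.5%, while 1.95% of the regions called in immature B cells alone overlap one.

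Regions were paired with the closest protein-coding gene, up to 100 kb away, which does not show that it acts on that gene. Of 65361 assigned regions, 8920 (13.6%) were called in immature B cells alone, and this share is the background for the genes and lists that follow. Of the same 65361, immature B cells called 48258 and 42399, plasma cells 34483 and 33556 and pc-BMACs 36771 and 31894. Immature B cells thus had the most calls before any gene or list was chosen. Many genes named below were chosen for their number or share of such regions. By the rule these have no peak in plasma cells or pc-BMACs, so fewer calls there partly follow from the choice. At least 1 such region lay at 5180 of 15455 genes (33.5%). Of those genes, 3241 had exactly 1, and 224 had 5 or more. Genes with such a region also had a region called in all 6 libraries at 73.0%, near the 74.8% of all genes with a region.

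Transcription factors of the B lineage had 103 of 704 regions called in immature B cells alone (14.6%), near the background, spread over 27 of 30 genes. The share was above the background of the same setting in 9 of 12 other settings. The list's regions were called 495 and 435 times in immature B cells, 370 and 358 times in plasma cells, and 410 and 328 times in pc-BMACs. Both immature B cell libraries called a smaller part of this list than of all assigned regions. Only pc-BMACs 1 called a larger part. Foxp1, a forkhead factor of early B cell development, had 16 of its 99 regions, the most of any gene, yet 16.2% is close to the background. Bcl11a, a zinc finger factor needed for lymphoid development, had 9 of 30 regions. The widest, at chr11:24254907-24256210, 81349 bp beyond the gene, covered 1304 bp in immature B cells 1 and 777 bp in immature B cells 2. Over all 30 Bcl11a regions, the calls were 28 and 21 in immature B cells, 12 and 13 in plasma cells and 10 and 7 in pc-BMACs. Ebf1, an early B cell specifier, had 8 of 46 (17.4%), and Bach2, a repressor that delays plasma cell formation, 7 of 60 (11.7%). Spi1, which encodes PU.1, had 0 of 5, and Spib 0 of 1.

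Pax5, the factor that commits cells to the B lineage, had 6 of 20 regions called in immature B cells alone, 5 of them in the gene. Calls over the 20 regions were 15 and 14 in immature B cells, 10 and 8 in plasma cells and 7 and 5 in pc-BMACs. The widest of the 6, at chr4:44707957-44710449, covered 2493 bp in immature B cells 1 and 907 bp in immature B cells 2, and ended 245 bp inside the gene from its annotated start. The next region, at chr4:44710558-44714591, lay across that start and was not among them: it covered 4034 and 848 bp in immature B cells, 345 bp in plasma cells 1 and 150 bp in pc-BMACs 1, and had no peak in plasma cells 2 and pc-BMACs 2. Only 108 bp separate the 2, so that with merging up to 200 bp they joined and the wide Pax5 region no longer met the rule. The other 5 were at most 364 bp wide. A pair of Pax5 regions was called in all 6 libraries, such as chr4:44701444-44706580, which covered 5137 and 2366 bp in immature B cells, 646 and 823 bp in plasma cells and 1384 and 601 bp in pc-BMACs. Pax5 was therefore not closed in plasma cells or pc-BMACs by these calls. Some Pax5 regions went the other way: chr4:44624265-44625206 covered 942 and 889 bp in plasma cells and 879 bp in each pc-BMAC library, with no peak in immature B cells. The adjacent gene Zcchc7, a zinc finger gene whose introns are known to hold a Pax5 enhancer, had 10 of 25 regions called in immature B cells alone.

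Ikzf1 had 4 of 32 regions, and the one over a promoter window, shown above, stood between regions called everywhere. At chr11:11688929-11691187 the peaks covered 2259 and 1084 bp in immature B cells, with no peak in the other 4 libraries. The region before it, chr11:11684504-11687320, covered 1729 to 2817 bp in all 6 libraries, and the one after it, chr11:11691304-11692263, 391 to 878 bp. The region after it lies 116 bp away, and where peaks up to 200 bp apart were merged the 2 joined, so that this Ikzf1 region was no longer called in immature B cells alone.

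B cell surface and receptor signalling genes had 54 of 394 regions (13.7%), on 17 of 30 genes, near the background, and above it in 5 of 12 other settings. Vav3, a guanine nucleotide exchange factor, had 5 of 13, all in the gene, with 11 and 10 regions called in immature B cells, while each plasma cell library called 4 and the pc-BMAC libraries 4 and 3. Bank1, an adaptor of the receptor, had 5 of 21. Rasgrp3 had 4 of 14, among them the promoter region shown above and chr17:75436840-75437387, which covered 548 and 266 bp. Of the defining B cell genes, Cd79a (2 regions), Cd79b (2) and Ms4a1 (3), which encode the receptor's signalling chains and CD20, had none. At Cd79a and Cd79b both immature B cell libraries called both regions, and so did both plasma cell libraries. At Ms4a1 2 regions were called in all 6 libraries and the other in immature B cells 1 alone. Ptprc, which encodes the B220 antigen of the gate, had 4 of 21. Ighm, which encodes the IgM heavy chain, was not among the protein-coding genes to which regions were assigned.

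Inhibitors of receptor signalling had 27 of 182 regions (14.8%), on 11 of 20 genes. Ubash3b, a phosphatase that acts on Syk, had 9 of 34, with 27 and 23 regions called in immature B cells, 14 and 12 in plasma cells and 20 and 13 in pc-BMACs. Rasa2, a Ras GTPase activating protein, had 4 of 15. Cd22, Cd72, Ptpn6 and Fcgr2b, which hold receptor signalling in check, had none.

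Genes of early B cell precursors had 30 of 157 regions called in immature B cells alone (19.1%), on 11 of 14 genes. Erg and Arpp21 held 13 of the 30, and the other 12 genes had 17 of 116 (14.7%), near the background. The list's regions were called 123 and 96 times in immature B cells, 70 and 68 times in plasma cells and 63 and 52 times in pc-BMACs. Immature B cells 1 called a larger part of this list than of all assigned regions, and immature B cells 2 a smaller one. Plasma cells and pc-BMACs called smaller parts in every library. Under all 12 other settings the list stayed above the background of the same setting, from 12.9% against 6.82% with the widest peaks to 35.3% against 24.1% without immature B cells replicate 2. Erg, an ETS factor of haematopoietic progenitors, had 7 of 27 and no peak in either pc-BMAC library. Its widest, at chr16:95360077-95360990, covered 914 and 757 bp. Arpp21, which encodes a cAMP-regulated phosphoprotein, had 6 of 14, one of them at chr9:112226477-112226914, 542 bp from a start, covering 438 and 289 bp. Cd93, a surface marker of immature B cells, had 4 of 12, all outside the gene, at chr2:148454093-148454599 with 507 and 426 bp among others. Cd24a, a marker of early B cells, had 3 of 13, also all outside the gene. Kit, Cd34 and Ly6d had none. At Kit, the receptor of stem cell factor, immature B cells called 1 and 0 of 5 regions, plasma cells 3 and 2, and both pc-BMAC libraries all 5.

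Recombination and surrogate light chain genes had 2 of 31 regions (6.45%), at Rag1 and Xrcc4. The Rag1 region, chr2:101652786-101653156, 3254 bp outside the gene, covered 332 and 269 bp. Rag1, which with Rag2 cuts antigen receptor genes, had 4 regions, called 4 and 2 times in immature B cells, 0 and 1 times in plasma cells and never in pc-BMACs. Rag2 had 2 regions and neither met the rule: both immature B cell libraries called both, plasma cells called 1 and 2, and pc-BMACs 1 and 0. Igll1, Vpreb2 and Vpreb3 had none.

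The Igk locus, which encodes the kappa light chain, at chr6:67555636-70726754, had 79 of 261 regions called in immature B cells alone (30.3%, against 14.3% of all regions). Its regions were called 252 and 170 times in immature B cells, 72 and 83 times in plasma cells and 29 and 21 times in pc-BMACs. Over all regions, immature B cells called 74.1% and 64.8%, plasma cells 51.8% and 50.5% and pc-BMACs 54.7% and 47.4%, so that immature B cells had the most calls there too. Regions that overlapped an annotated V segment gave the same share, 45 of 150 (30.0%). The median width was 348 bp. With lists cut to the length of the shortest, the share for the locus was 20.6%, against 7.19% of all regions in that setting. With the 17035 widest it was 23.3% (7 of only 30 regions), against 5.97%. Without immature B cells replicate 1 the locus had 43.7%, and the background of assigned regions was 18.8%. Without immature B cells replicate 2 the locus had 61.6%, and that background was 24.1%. The Igh locus had 6 of 35 and Igl 2 of 24. At T cell receptor genes, Tra and Trd had 13 of 26, called 22 and 19 times in immature B cells, 7 and 5 in plasma cells and 2 and 2 in pc-BMACs, and Trb had 4 of 10. V segments are related copies, and how reads with several matches were handled is not given in the sources used here.

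Activation and germinal centre genes had 23 of 124 regions (18.5%), on 12 of 19 genes, above the background in 11 of 12 other settings. With only regions that overlap the gene, the share was 7.5% against 11.6%. Rgs1, which damps chemokine receptor signals, had 5 of 12, none in the gene, with the widest at chr1:144243359-144243992, 677 bp past the gene, covering 505 and 558 bp. Its regions were called 11 and 10 times in immature B cells, 6 and 5 in plasma cells and 2 and 1 in pc-BMACs. Cd83, an activation marker, had 5 of 19, with one at chr13:43777253-43778734 covering 1251 and 1350 bp, wider in the second library. Gcsam had 2 of 3. Genes of trafficking and adhesion had 37 of 225 (16.4%), on 17 of 22 genes, above it in 10 of 12, led by Dock10 with 6 of 27 and S1pr1, the receptor that draws lymphocytes into the blood, with 5 of 21, none in the gene. The widest S1pr1 region, at chr3:115694881-115695931, covered 1051 and 600 bp. Toll-like receptors and their adaptors had 15 of 99 (15.2%), 6 of them at Ly86 and 4 at Tlr1.

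Transitional and mature B cell subset genes had 12 of 110 regions (10.9%), and were not above the background in 10 of 12 other settings. They were above it, with 22.7% against 17.8%, where peaks had to cover 50% of the region. With the 17035 widest they had 11.3% against 5.68%. Fcer2a, which encodes CD23, a marker of mature follicular B cells, had 3 of 5. Of these, chr8:3684987-3685249 covered 227 and 245 bp, chr8:3687651-3687975 covered 325 and 236 bp, and chr8:3699015-3699559 covered 545 and 343 bp. The region across the annotated start, chr8:3692995-3694519, covered 1525 and 968 bp in immature B cells and 232 bp in pc-BMACs 1, so the rule left it out. Antigen presentation and costimulation had 7 of 82 (8.54%), 1 each at 7 genes, but the list was above the background in 3 of 12 other settings, with 25.6% against 17.8% where peaks had to cover 50% of the region, 8.97% against 6.82% with the 34070 widest and 16.0% against 5.68% with the 17035 widest. That at H2-Aa, which encodes a class II chain, was wide: chr17:34281184-34283331 covered 2012 and 1540 bp. Survival genes and BAFF receptors had 11 of 181 (6.08%), below the background, and stayed below it under all 12 other settings; Tnfrsf13c, Tnfrsf17 and Mcl1 had none.

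Plasma cell genes had 11 of 248 regions called in immature B cells alone (4.44%), on 7 of 20 genes, below the background here and under all 12 other settings. The same list had 29 regions called in pc-BMACs alone (11.7%, against 4.53% of all assigned regions) and 3 called in plasma cells alone (1.21%, against 1.51%). Its regions were called 116 and 101 times in immature B cells, 138 and 132 times in plasma cells and 187 and 162 times in pc-BMACs. Zbtb20, a zinc finger factor of long-lived plasma cells, had 3 of 37, and Xbp1 0 of 6. Prdm1, which encodes Blimp-1, had 2 of 24, at chr10:44447980-44448484 with 505 and 341 bp and at chr10:44595888-44596317 with 430 and 366 bp. Sdc1, which encodes the CD138 of the gate, had 2 of 13, and Tnfrsf13b, which encodes TACI, 1 of 9. Irf4, needed for plasma cells and also active earlier, had 1 of 5 but a wide one: chr13:30765853-30767951 covered 2099 and 1097 bp across the end of the gene. Aire had 2 regions, both called in all 6 libraries.

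**Figure D3:**
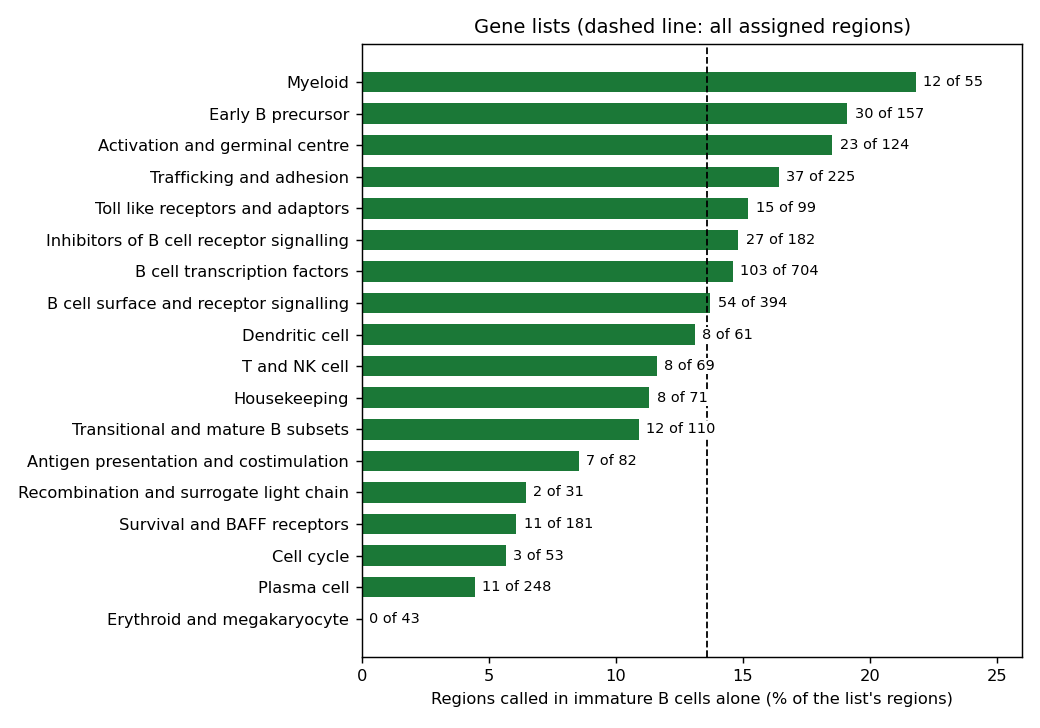
Share of each gene list's regions that were called in immature B cells alone (x axis, %), with counts at the bars. The dashed line is the 13.6% of all assigned regions. The highest bar is the myeloid list (21.8%), followed by the early B precursor list (19.1%). The list of erythroid cells and megakaryocytes (0 of 43) and the plasma cell list (4.44%) are lowest.

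Lists for other cell types gave mixed counts. The myeloid list had the highest share, 12 of 55 regions (21.8%), but on only 4 of the 14 genes with a region: Itgam with 6 of 15, Adgre1 with 3 of 7, Csf1r with 2 of 4 and Csf3r with 1 of 6. Its regions were called 41 and 36 times in immature B cells, 25 and 29 times in plasma cells and 19 and 18 times in pc-BMACs. Immature B cells called nearly the same part of this list as of all assigned regions. Both pc-BMAC libraries and plasma cells 1 called a smaller part, and plasma cells 2 a slightly larger one. The myeloid list stayed above the background under all 12 other settings, the closest being 7.32% against 6.82% with the widest peaks. The other 11 genes, among them Lyz2, Cebpa, Mpo and S100a8, had 23 regions between them, with 0 to 3 each, and none met the rule. Elane had no region at all. The list of T and NK cells had 8 of 69 (11.6%), 4 of them at Cd2, that of dendritic cells 8 of 61 (13.1%), and that of erythroid cells and megakaryocytes 0 of 43. The part of other cells in the sorted immature B cells was not tested. Cell cycle genes had 3 of 53 and housekeeping genes 8 of 71 (11.3%), of which Ywhaz had 6.

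**Figure D4:**
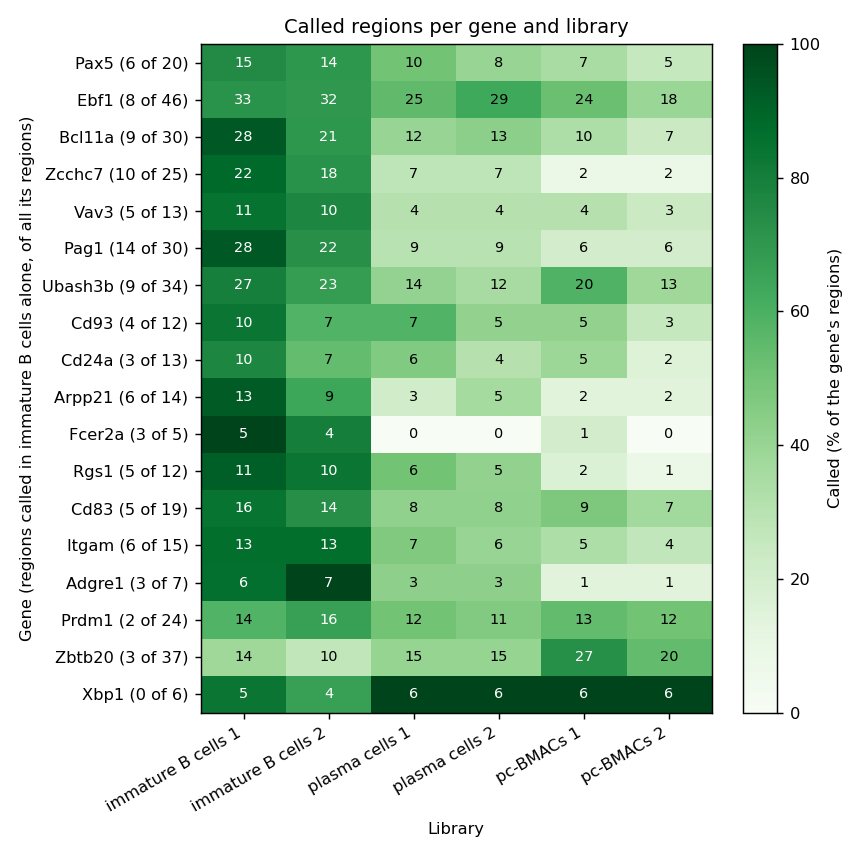
Number of regions called in each library (columns) at named genes (rows), shaded by the percent of the gene's regions that the library called; row labels give the regions called in immature B cells alone of all regions. Fcer2a, chosen for such regions, has 5 and 4 calls in immature B cells against 0 or 1 elsewhere, a contrast the choice partly fixes. Xbp1, a fixed gene, has 6 in every plasma cell and pc-BMAC library.

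Genes outside the lists held many of these regions. By number, Foxp1 was followed by Pag1 with 14 of 30, Ttc28 with 12 of 35, Pde4d with 12 of 37 and Lpp with 12 of 57, then Mctp2 with 11 of 20, Nav2 with 11 of 40 and Arid1b with 11 of 57. Pag1, an adaptor that recruits the kinase Csk to the membrane, was called at 28 and 22 of its regions in immature B cells, 9 and 9 in plasma cells and 6 and 6 in pc-BMACs. It was chosen for its number of such regions, so the choice partly fixes this contrast. Zbtb18, a zinc finger repressor, had 10 of 19 and none in the gene. Ldlrad3 had 10 of 21, Itga9, an integrin chain, 10 of 24, Sorl1, a sorting receptor, 10 of 25, Arhgap24 10 of 26 and Sipa1l1 10 of 31. Most of these genes are long, and a count rises with the number of regions at the gene.

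By share, among genes with 8 or more regions, Ryr2, a calcium release channel known from heart muscle, led with 6 of 8, followed by Parn, a poly(A) ribonuclease, with 9 of 13, Trpm3, a cation channel, with 8 of 12, and Hcrtr2, an orexin receptor, with 7 of 11. Car2, Fyb, Gfra1 and Olfr266 had 5 of 8 each, and Cog6 and Fabp5 6 of 10 each. Several are better known from other tissues, and the nearest gene was assigned by distance alone. Ryr2, Trpm3, Fyb, Gfra1 and Olfr266 had no peak in pc-BMACs and at most 3 regions called in a plasma cell library. All were chosen for a high share of regions that by the rule have no peak in those populations. Their few calls there are therefore largely a description of the choice. Parn, Car2, Fabp5 and Hcrtr2, by contrast, had 1 region each called in all 6 libraries, and Cog6 had 2.

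The regions also lay in runs, joined where gaps were at most 25 kb. Of 7341 runs, 5559 held a single region, and 62 held 5 or more, with 362 regions in all. The 5 runs named were chosen for their number of such regions, so their calls are a description of the choice. The run with most held 10 such regions among 15 over 84.3 kb, chr19:11324137-11408388, at Ms4a4a, Ms4a4c and Ms4a7, membrane proteins of the CD20 family. Those 15 were called 15 and 11 times in immature B cells and once in each other library. A run inside Parn had 8 of 8 over 36.4 kb, chr16:13608554-13644904, with no peak in the other populations. Its regions chr16:13639134-13639887, chr16:13640026-13640666 and chr16:13640785-13641135 lie only 138 and 118 bp apart. Merging up to 200 bp joins them, while the counts at Parn hold them as separate regions. At Frmd4b, 8 of 9 regions over 76.4 kb met the rule and again no other population had a peak. At Dennd3 and Slc45a4 it was 8 of 10 over 58.6 kb. The fifth run, 8 of 13 over 82.9 kb at chr11:83550198-83633055, lay at Ccl3, Ccl5, Ccl6 and Ccl9, a cluster of chemokine genes. Its regions were called 13 and 9 times in immature B cells, once in each pc-BMAC library and never in plasma cells.

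**Figure D5:**
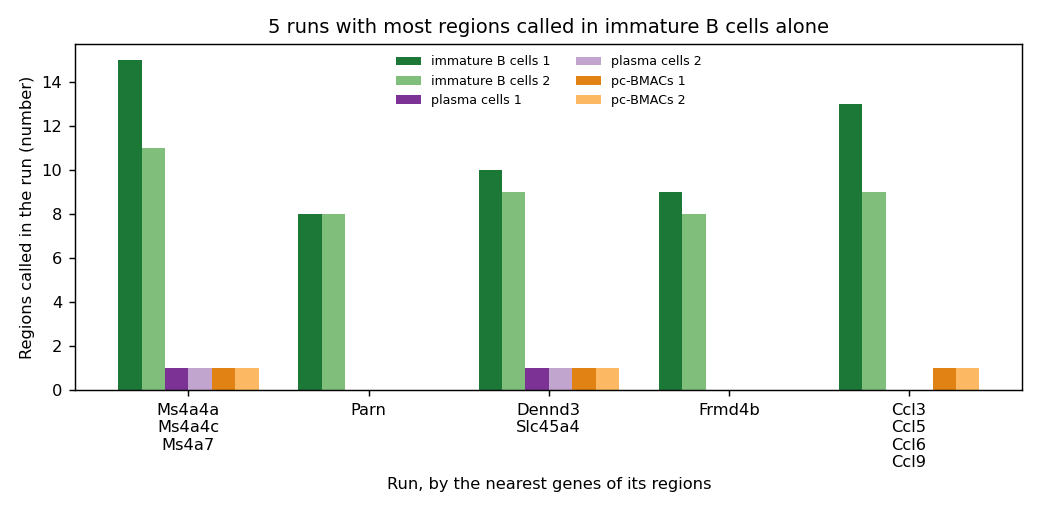
Number of regions called in each library (y axis) in the 5 runs with most regions called in immature B cells alone (x axis, by nearest genes). Immature B cells called 8 to 15 regions in each run and every other library at most 1, a contrast that the choice of the runs largely fixes.

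The widest regions were far above the median of 321 bp. After Zfp608, at 2943 bp, came Snx5 at 2814 bp, Slc22a12 at 2547 bp, Tbc1d7 at 2515 bp, Pax5 at 2493 bp, Srebf2 at 2488 bp, Gm8369 at 2444 bp, Ikzf1 at 2259 bp, Ly6e at 2226 bp and Adgrg1 at 2157 bp. With merging up to 200 bp, 8 of the 10 still met the rule, all but those at Pax5 and Ikzf1. All 10 were widest in immature B cells 1, where the peak spanned the whole region. In immature B cells 2 they ranged from 313 bp at Ly6e to 2134 bp at Srebf2, a regulator of cholesterol synthesis, so that the Srebf2 region was wide in both libraries and the Ly6e region in the first alone. The Srebf2 region lay in the gene, at chr15:82165244-82167731, and 17975 bp from the nearest start.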

How the data were processed

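ATAC-seq peak lists of 6 libraries, 2 per population, were used, grouped by the labels. Per the submitters' processing notes, the build was mm10 and the tools were HOMER 4.10, Bowtie2 2.3.3 and bedtools, with no roles given. Each deposited list has 5 columns and a score of 1000 in every row, so peak height, p-value and depth are unknown; that score column, made by the authors, was not used, and precision rests on the number of libraries.

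Peaks overlapping by at least 1 bp were merged, and regions were assigned to the nearest protein-coding gene within 100 kb in RefSeq GRCm38.p6 (21887 genes, of which 17492 had a promoter window). The merging was tested on simulated data. Python 3.11.15, pandas 2.3.3 and numpy 2.4.6 were used. No test was made: the calls chose the regions, and 2 libraries against 4 cannot go below a two-sided exact permutation p of 0.0667. Replicates may be technical, since no source used here says that they are separate animals.

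The regions and the 18 gene lists were chosen with earlier results of these data known. Named genes were the 15 with most such regions, the 10 with the highest share among genes with at least 8 regions, up to 4 per list, and 17 fixed genes; also named were the 10 widest regions and the 5 runs with most. Genes outside this rule, such as those with no such region and the genes Fgr and Ms4a6b, were named after their values were seen. Alternatives were list length, coverage of the region, merging distance, gene assignment and leaving out each library. A few genes named by this rule are not reported here.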

Additional observations from a re-analysis of the deposited data

How the results depend on the processing

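No paired analysis was possible because the results come from no test. Where a peak had to cover 50% of the region, 7.37% of the regions lay within 1 kb of a gene end, and 56.9% and 85.2% of those chosen in immature B cells 1 and 2 were found in the other library. With lists cut to the length of the shortest, the values were 3880 regions, 6.98% near a gene end, 53.6% in a gene, a median width of 484 bp, and 60.2% and 68.1% found again. With the 17035 widest peaks of each list they were 1508, 13.2%, 57.4%, 1051 bp, 51.2% and 65.3%. Merging peaks up to 200 bp apart gave 59.4% found again for immature B cells 1. Within 500 bp of a gene end lay 3.45%, within 5 kb 19.0%, and 62.0% overlapped a gene of any type. Leaving out 1 library at a time gave 10152 to 16917 regions, 5.76% to 6.17% near a gene end, 51.8% to 52.6% in a gene, median widths of 229 to 331 bp, and 58.9% to 61.4% and 82.2% to 83.6% found again. Of 1176 counts at named genes under these settings, 882 stayed within 1.5 times of the value given and 294 did not. The shares of the Igk locus (20.6% to 61.6%) and of GAGGAAG windows (15.7% to 25.5%) under 10 settings were added after seeing the data. The cause of these shifts was not tested.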
